A study of Mus musculus with 6 samples.

Results

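The nuclear genes of the mitochondrial respiratory chain and the ATP synthase were examined in mouse embryonic stem (ES) cells, which are pluripotent cells of the early embryo. They were taken by name from the deposited expression table. A row was a member when its symbol began with Nduf, Sdha, Sdhb, Sdhc, Sdhd, Uqcr, Cox4 to Cox8 or Atp5 and held no -ps, the mark of a pseudogene. The rule gave 94 of the 24043 gene rows. By name, 45 belonged to complex I, 6 to complex II, 8 to complex III, 18 to complex IV and 17 to complex V. Among them were 75 subunit genes, 11 assembly factor genes and 8 isoform genes known mainly from particular tissues. Ndufa4 was kept with complex I because of its name, although its protein is now counted with complex IV. Atp5sl was likewise kept with complex V by name, although the GENCODE M21 annotation names it Dmac2. The group labelled Q-KO, which the genotype label describes as lacking all G1 cyclins, and the wild-type group held 3 libraries each. Both groups were ES cells grown in Knockout DMEM with CHIR99021, an inhibitor of GSK3, PD184352, an inhibitor of MEK, and LIF. The labels name no allele, strain, clone or sex, and do not state whether replicates were separate cultures. All p-values below therefore measure the spread between these libraries, which may be technical.

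The respiratory chain passes electrons from NADH (complex I) and succinate (complex II) through complex III to oxygen at complex IV. Complexes I, III and IV pump protons across the inner mitochondrial membrane, and complex V, the ATP synthase, uses the return flow to make ATP. Most subunits are encoded in the nucleus and several core ones in mitochondrial DNA, which was not analysed here. ES cells are known to rely strongly on glycolysis while keeping an active respiratory chain.

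Levels are FPKM, a fragment count scaled to the transcript's length and to the library's total, as the authors deposited them. The number of fragments behind them is not given in the sources used here. All 8 ES cell marker genes were detected, with summed levels of 5679 to 10351 FPKM in Q-KO and 5819 to 7294 FPKM in wild-type libraries. Dppa5a made up most of each sum, at 3676 to 7781 FPKM. Zfp42 and Dppa3 were highest in wild-type replicate 3, at 363 and 273 FPKM, against at most 177 and 114 FPKM in any other library. The 7 fibroblast feeder markers summed to 6.48, 0.951 and 0.984 FPKM in Q-KO replicates 1, 2 and 3, and to between 1.61 and 2.99 FPKM in wild-type libraries. Col1a1, Col1a2 and Col3a1 were at 1.86, 1.16 and 1.35 FPKM in Q-KO replicate 1 and at most 0.168 FPKM in any other library. Thy1, which made up most of the sum in those other libraries, was lower in each Q-KO library. The 5 trophectoderm markers summed to 4.55 to 7.92 FPKM in Q-KO libraries, and to 6.10, 6.75 and 40.0 FPKM in wild-type replicates 1, 2 and 3. Krt8 and Krt18 carried that sum, while Cdx2 (0.393 to 0.805 FPKM in Q-KO and 0.0178 to 0.0489 FPKM in wild-type libraries) and Gata3 were low but higher in each Q-KO library. The 5 primitive endoderm markers summed to between 1.71 and 2.59 FPKM in Q-KO and between 1.21 and 2.03 FPKM in wild-type libraries, with Dab2 (at most 1.24 FPKM) higher in each Q-KO library. The part of these markers in the results was not tested. The 5 Y-linked genes examined were present in the 3 Q-KO libraries and in wild-type replicate 3, and were listed at 0 in wild-type replicates 1 and 2. Of the G1 cyclins, Ccnd1, Ccnd3 and Ccne2 fell in Q-KO libraries (limma adjusted p = 0.0124, 0.0101 and 0.0182). Ccne1 went against the genotype label, at 65.3, 73.5 and 87.3 FPKM in Q-KO libraries and 55.9, 53.9 and 37.5 FPKM in wild-type libraries (limma adjusted p = 0.113). Ccnd2, below the level filter, was at 0.548, 0.347 and 0.299 FPKM in Q-KO and 0.163, 0.310 and 0.0640 FPKM in wild-type libraries, and its mean was not lower in Q-KO. Every direction below is therefore that of the libraries labelled Q-KO.

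Respiratory chain and ATP synthase transcripts were abundant in both groups, and their summed level overlapped between them. The 94 members together reached 19511, 19973 and 27150 FPKM in Q-KO replicates 1, 2 and 3, and 20004, 19641 and 20340 FPKM in wild-type replicates 1, 2 and 3. The means were 22211 ± 4283 FPKM in Q-KO and 19995 ± 350 FPKM in wild-type libraries (SD, n = 3 each). Q-KO replicate 3 stood above the other 5 libraries, and the other Q-KO libraries lay within or just under the wild-type range. In bulk RNA, a lower share of cells of a type and less RNA per cell cannot be told apart. Members made up 3.72%, 3.67% and 4.23% of all FPKM in Q-KO libraries and 3.57%, 3.48% and 3.60% in wild-type libraries.

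**Figure D1:**
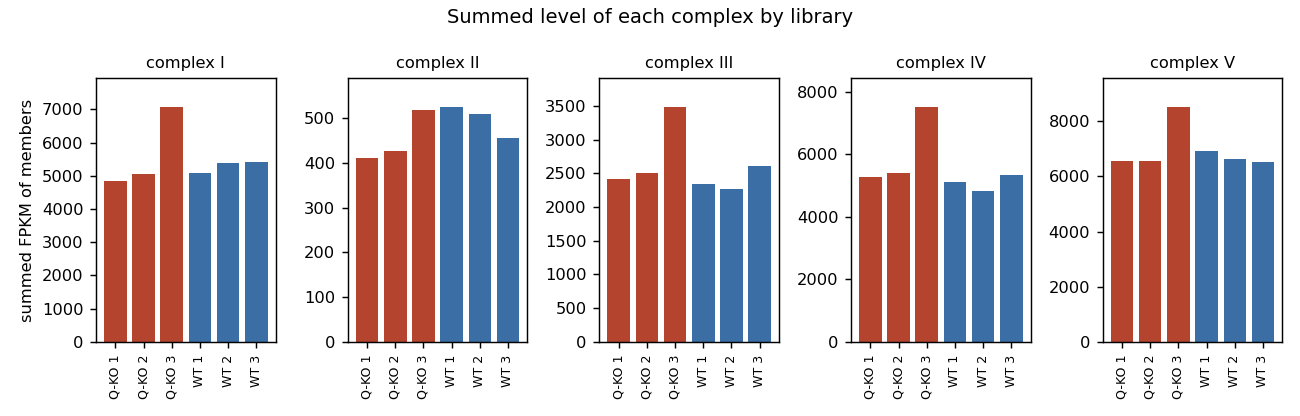
Summed FPKM of the members of each complex (vertical axis) by library, with Q-KO libraries left of wild-type (WT) libraries. Q-KO replicate 3 is the highest library for complexes I, III, IV and V, and the groups overlap in all 5 complexes.

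Q-KO replicate 3 had the highest value of the 6 libraries for 66 of the 92 members tested (71.7%), against 23.2% of all genes tested. Relative to the mean of Q-KO replicates 1 and 2, it was higher for 88 of 92 members (95.7%), against 49.5% of all genes. The median of that difference on the log2(FPKM + 1) scale was 0.45 for members and -0.003 for all genes. Length here is the median over a gene's GENCODE transcripts, the protein-coding ones where present, and can differ from that of its main transcript. By that measure members were short: 65 of 92 (70.7%) lay under 1000 bases, against 21.1% of all genes with a length. The 38 members of 500 to 750 bases had a median difference of 0.50, against 0.25 for all 955 genes of that length. The 7 members of 1500 to 2500 bases had a median difference of 0.08, against 0.04 for all 2927 genes of that length. The part of transcript length and of this library in the results below was not tested beyond the values given with and without them.

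**Figure D2:**
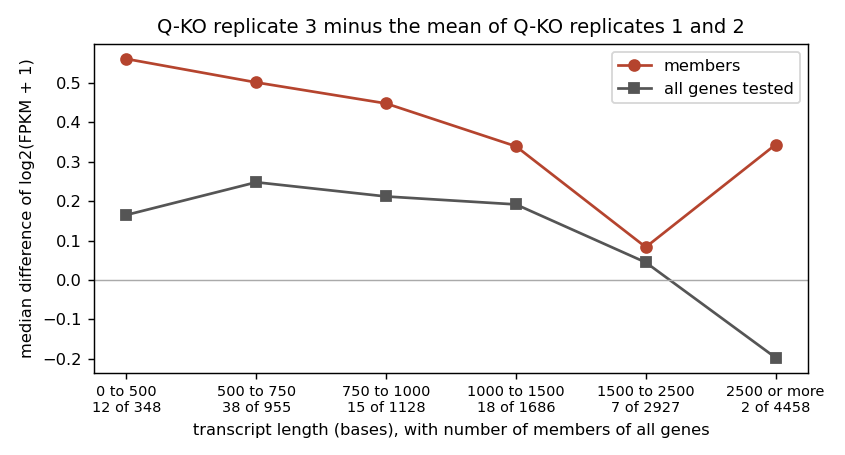
Difference between Q-KO replicate 3 and the mean of Q-KO replicates 1 and 2 in log2(FPKM + 1), as a median over genes. It is plotted (vertical axis) by the gene's median transcript length in bases (horizontal axis), for members and for all genes tested. Members lie above all genes in every length class, with medians of 0.56 below 500 bases and 0.08 at 1500 to 2500 bases. The longest class holds 2 members.

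The comparison asked which of these genes differed between Q-KO and wild-type libraries. Of the 92 members that averaged at least 1 FPKM over the 6 libraries, 1 passed the test. It was Cox6a2, a complex IV isoform gene of heart and skeletal muscle, which was higher in Q-KO libraries, and 0 members were lower. That is 1.09% of members tested, against 4.06% of all 11573 genes tested (3.04% higher and 1.02% lower). The test was limma on log2(FPKM + 1) with Benjamini-Hochberg adjustment over all genes and a threshold of 0.05. At an unadjusted p under 0.05 there were 12 members (13.0%), 7 higher and 5 lower, against 2493 of all genes (21.5%), 1718 higher and 775 lower. The median log2 change of members was 0.09, with 62 above 0 and 30 below. For all genes the median was 0.07, with 6861 above 0 and 4712 below. Without Q-KO replicate 3 the median of members was -0.02, with 42 above 0 and 50 below, and 0 members passed. In that fit the median of all genes was 0.08, and only 85 of 11573 genes were called. With median-of-ratios scaling, 48 members were above 0 and 44 below (median 0.002), and with the length trend removed 45 were above and 47 below (median -0.01). The median of all genes also fell in these 2 fits, to -0.005 and -0.003, so the drop was not particular to members. The groups did not overlap for 17 members (18.5%), 12 higher and 5 lower, against 27.7% of all genes, 18.2% higher and 9.44% lower. The members' shares thus lay below or near the background in both respects. Cox8b and Cox8c were below the level filter and were not tested.

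**Figure D3:**
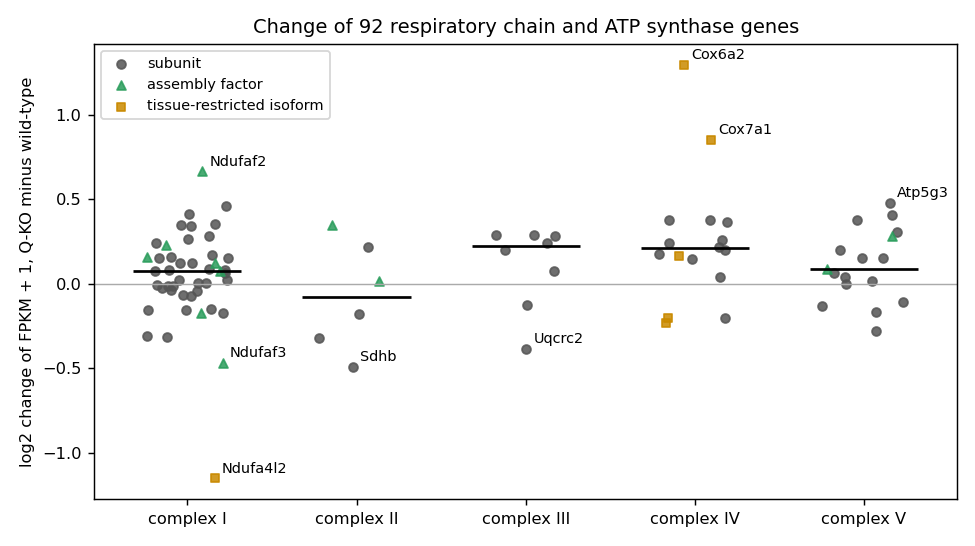
Log2 change, Q-KO minus wild-type, of each tested member (points) by complex, with the median of each complex as a bar. Cox6a2 at 1.30 is the only member that passed the test, and complex medians run from -0.08 in complex II to 0.22 in complex III.

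Complex I, the NADH dehydrogenase, showed no called member among 45, with 4 members at an unadjusted p under 0.05. Its median log2 change of 0.07 was -0.01 with median-of-ratios scaling and -0.07 without Q-KO replicate 3. The 7 core subunits, which carry the electron path, had a median of -0.04 and ranged from -0.17 to 0.15, with 0 at an unadjusted p under 0.05. Ndufv1, which holds the NADH-binding site, was at 59.3, 67.2 and 75.2 FPKM in Q-KO and 76.0, 63.4 and 68.5 FPKM in wild-type libraries. Its log2 change was -0.04, with a 95% interval of -0.37 to 0.28. The 30 accessory subunits had a median of 0.08, and 5 of them (16.7%) had separate ranges that were higher in Q-KO libraries, against 18.2% of all genes. Ndufa8 was among them, at 63.5, 65.9 and 75.8 FPKM in Q-KO and 60.0, 50.7 and 50.5 FPKM in wild-type libraries (log2 change 0.34, SE 0.14, limma adjusted p = 0.194). Ndufa4 was the most abundant member under this complex, at 591, 542 and 755 FPKM in Q-KO and 505, 634 and 585 FPKM in wild-type libraries. Its log2 change of 0.12 (limma adjusted p = 0.729) turned to -0.01 without Q-KO replicate 3. Ndufs5 was far below the other subunit genes, at 2.79, 2.63 and 7.66 FPKM in Q-KO and 2.96, 2.20 and 2.98 FPKM in wild-type libraries. A pseudogene of the same name exists, so its level is uncertain. Ndufa8, Ndufv1 and Ndufs5 were named after their values were seen.

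The complex I assembly factors lay on both sides of 0, and none passed the test. Ndufaf2, a chaperone of late assembly, was at 47.9, 49.6 and 69.9 FPKM in Q-KO and 33.5, 33.5 and 36.0 FPKM in wild-type libraries. Each Q-KO library was above every wild-type library, with a log2 change of 0.67 (SE 0.17, limma adjusted p = 0.0676). With the trend over transcript length removed, the limma adjusted p was 0.0487, and under every other alternative it was above 0.05. It was 0.102 with median-of-ratios scaling, 0.101 with the GC trend removed, and 0.0796 to 0.196 with a library left out. Ndufaf3, which acts early in assembly, was at 8.23, 9.998 and 12.4 FPKM in Q-KO and 14.7, 13.8 and 14.6 FPKM in wild-type libraries (log2 change -0.47, SE 0.17, limma adjusted p = 0.158). It was named after its values were seen and its exons overlap Impdh2, so its level is uncertain.

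Complex II, the succinate dehydrogenase, is made wholly of nuclear-encoded proteins, and 3 of its 4 subunit genes had lower means in Q-KO libraries without passing the test. Sdhb, the iron-sulfur subunit, was at 86.2, 95.6 and 145 FPKM in Q-KO and 157, 133 and 160 FPKM in wild-type libraries. The ranges overlapped through Q-KO replicate 3 (log2 change -0.49, SE 0.20, limma adjusted p = 0.210). Sdhc, a membrane anchor, was at 69.8, 64.8 and 66.4 FPKM in Q-KO and 92.3, 88.8 and 71.9 FPKM in wild-type libraries, with no overlap (log2 change -0.32, SE 0.14, limma adjusted p = 0.224). Sdha, the flavoprotein, was at 83.7, 85.7 and 87.8 FPKM in Q-KO and 102, 104 and 86.3 FPKM in wild-type libraries (log2 change -0.18, limma adjusted p = 0.458). The other anchor gene, Sdhd, stood on the opposite side, at 150, 156 and 193 FPKM in Q-KO and 152, 162 and 115 FPKM in wild-type libraries (log2 change 0.22, limma adjusted p = 0.501). That change was 0.07 without wild-type replicate 3 and 0.11 without Q-KO replicate 3. The assembly factor Sdhaf2 was at 11.4, 10.6 and 10.5 FPKM in Q-KO and 8.81, 8.13 and 7.93 FPKM in wild-type libraries (log2 change 0.35, limma adjusted p = 0.177).

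Complex III, the cytochrome bc1 complex, had 6 of 8 members above 0 and a median of 0.22, which was 0.06 without Q-KO replicate 3. By limma 0 were called and 1 was at an unadjusted p under 0.05. This was Uqcrc2, a core protein, at 100, 97.9 and 106 FPKM in Q-KO and 124, 150 and 126 FPKM in wild-type libraries. The groups did not overlap (log2 change -0.38, SE 0.13, limma adjusted p = 0.139). Its partner core protein gene Uqcrc1 was at 150, 157 and 142 FPKM in Q-KO and 164, 138 and 125 FPKM in wild-type libraries. The small subunit genes lay above 0, and Uqcrq had the highest log2 change, 0.29 (SE 0.21, limma adjusted p = 0.465), which was 0.08 without Q-KO replicate 3. Uqcr10, the most abundant, was at 572, 644 and 884 FPKM in Q-KO and 518, 481 and 725 FPKM in wild-type libraries, and its log2 change of 0.28 was 0.10 without Q-KO replicate 3.

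Complex IV, the cytochrome c oxidase, had 10 of its 11 broadly expressed subunit genes above 0, with a median of 0.22 that was 0.06 without Q-KO replicate 3. Cox7a2l, counted here as a subunit gene by its name, was the gene below 0, with a log2 change of -0.20. By limma 0 of the 11 were called or at an unadjusted p under 0.05. Cox5a and Cox7c had separate ranges, named after their values were seen. Cox5a was at 640, 636 and 896 FPKM in Q-KO and 602, 587 and 470 FPKM in wild-type libraries (log2 change 0.38, SE 0.19, limma adjusted p = 0.293, and 0.22 without Q-KO replicate 3). Cox6c, the most abundant of the complex, was at 612, 600 and 885 FPKM in Q-KO and 571, 621 and 557 FPKM in wild-type libraries. Cox6b1 had a log2 change of 0.04 that turned negative under each scaling tried, and its ranges overlapped. The other broadly expressed counterparts of the isoform genes, Cox4i1, Cox7a2, Cox7b and Cox8a, had log2 changes of 0.26, 0.18, 0.20 and 0.15, with overlapping ranges. Without wild-type replicate 2 the change of Cox4i1 was 0.09, and without Q-KO replicate 3 that of Cox7b was 0.06. Cox4i1, a regulatory subunit, was at 673, 606 and 738 FPKM in Q-KO and 586, 442 and 678 FPKM in wild-type libraries (limma adjusted p = 0.467).

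Cox6a2 rose in Q-KO libraries at a level near the filter. It was at 1.49, 2.54 and 2.39 FPKM in Q-KO and 0.0849, 0.373 and 0.356 FPKM in wild-type libraries. The groups were separate, with a log2 change of 1.30 (SE 0.22, limma adjusted p = 0.0202). It passed the filter through the Q-KO group only, and with a pseudocount of 0.1 its change was 2.68. The call was lost without wild-type replicate 1 (adjusted p = 0.0777), Q-KO replicate 2 (0.114) or Q-KO replicate 3 (0.0827). The broadly expressed counterpart Cox6a1 was at 436, 526 and 722 FPKM in Q-KO and 443, 343 and 498 FPKM in wild-type libraries, so Cox6a2 gave 0.341%, 0.480% and 0.330% of the pair in Q-KO and 0.0192%, 0.109% and 0.0715% in wild-type libraries. Cox6a2 has an exon that overlaps Itgad on the opposite strand, and Itgad was at most 0.00341 FPKM in every library. The 6 muscle markers summed to between 1.72 and 2.49 FPKM in Q-KO and between 1.83 and 2.98 FPKM in wild-type libraries, and 0 of them reached the filter.

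The other isoform genes did not pass the test. Cox7a1, the heart and muscle isoform of Cox7a, was abundant here, at 129, 127 and 224 FPKM in Q-KO and 56.3, 130 and 84.2 FPKM in wild-type libraries. Wild-type replicate 2 lay between the Q-KO values (log2 change 0.85, SE 0.33, limma adjusted p = 0.182), and the change was 0.56 without wild-type replicate 1. Its share of Cox7a1 plus Cox7a2 was 31.8%, 32.02% and 35.2% in Q-KO and 17.3%, 30.6% and 23.8% in wild-type libraries. Cox6b2, the testis isoform, was at 74.9, 101 and 126 FPKM in Q-KO and 85.4, 115 and 68.1 FPKM in wild-type libraries. Cox7b2, another testis isoform, was at 9.12, 7.85 and 10.7 FPKM in Q-KO and 10.7, 14.3 and 7.90 FPKM in wild-type libraries. Cox8c, not tested, was at 0.779, 0.678 and 0.846 FPKM in Q-KO and 0.190, 0.274 and 0.0855 FPKM in wild-type libraries. Cox4i2, the lung isoform, and Cox8b, a muscle isoform, were at most 2.69 FPKM in every library, and their groups overlapped. Ndufa4l2, a hypoxia-responsive relative of Ndufa4, was at 0.740, 1.24 and 3.41 FPKM in Q-KO and 7.14, 7.38 and 1.75 FPKM in wild-type libraries (log2 change -1.15, SE 0.49, limma adjusted p = 0.223). Wild-type replicate 3 fell among the Q-KO libraries, and the change depended on the libraries used. It was -1.68 without wild-type replicate 3 (adjusted p = 0.0353), between -0.87 and -0.90 without Q-KO replicate 1, wild-type replicate 1 or wild-type replicate 2, and -0.09 with a term for Y-linked transcripts (adjusted p = 0.926). Its exons overlap Shmt2 on the opposite strand, so its level is uncertain.

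**Figure D4:**
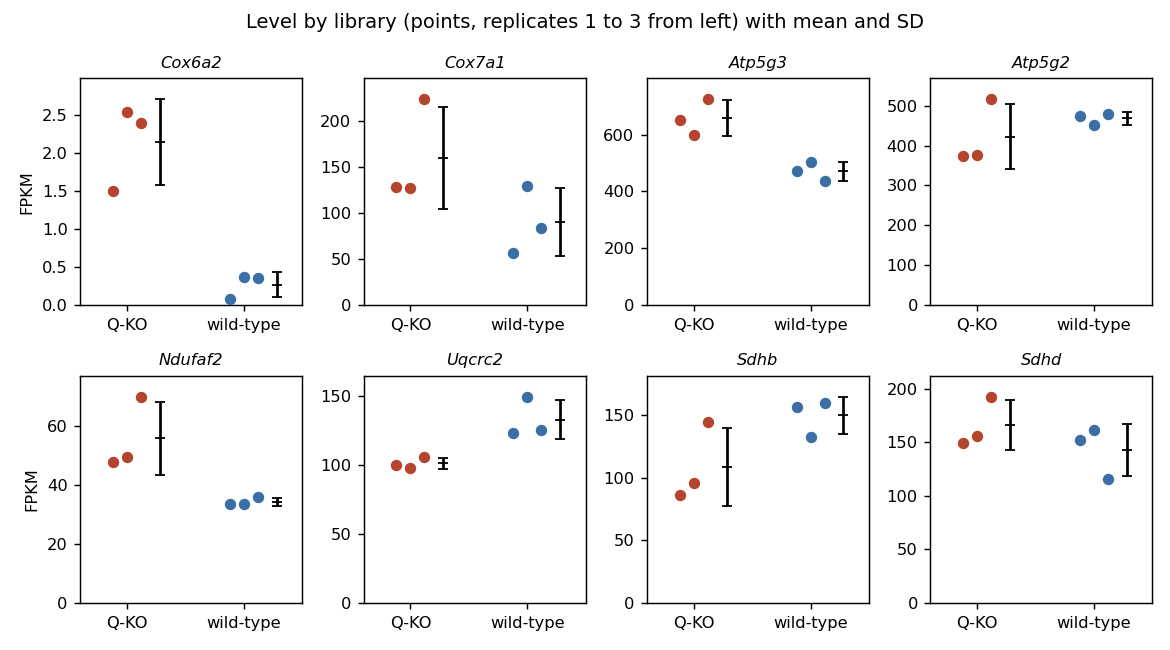
FPKM of 8 members (vertical axes) by group, with Q-KO left of wild-type; points are libraries and the bars give mean and SD of 3. Cox6a2, Atp5g3, Ndufaf2 and Uqcrc2 have separate groups, and only Cox6a2 passed the test.

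Complex V, the ATP synthase, held the most abundant member, Atp5b, the catalytic beta subunit. It was at 962, 1036 and 1058 FPKM in Q-KO and 1236, 1111 and 1015 FPKM in wild-type libraries, with overlapping ranges (log2 change -0.13, 95% interval -0.48 to 0.21). The 5 genes of the F1 part, Atp5a1, Atp5b, Atp5c1, Atp5d and Atp5e, had a median of 0.04. The 10 of the Fo part and peripheral stalk had a median of 0.11. By limma 0 were called in either, with 2 at an unadjusted p under 0.05, both of the Fo part and peripheral stalk. The median of all 17 members, 0.09, was -0.03 without Q-KO replicate 3 and -0.02 with the GC trend removed. Over the 15 subunit genes, which leave out Atp5s and Atp5sl, the median was 0.06. Atp5c1, the gamma subunit at the centre of the rotor, was at 301, 294 and 379 FPKM in Q-KO and 385, 401 and 388 FPKM in wild-type libraries, with separate ranges (log2 change -0.28, limma adjusted p = 0.313).

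The c subunit forms the rotor ring in the membrane and is encoded by 3 genes, Atp5g3, Atp5g2 and Atp5g1, whose mature proteins do not differ. The last 225 coding bases of each, 75 codons, are shown to let the genes be compared base by base where their proteins do not differ. The sequences are from the GENCODE M21 transcripts (GRCm38), 5′ to 3′, with capitals at bases that differ from both other genes. Atp5g3 lies on chromosome 2, Atp5g2 on chromosome 15 and Atp5g1 on chromosome 11.
Atp5g3: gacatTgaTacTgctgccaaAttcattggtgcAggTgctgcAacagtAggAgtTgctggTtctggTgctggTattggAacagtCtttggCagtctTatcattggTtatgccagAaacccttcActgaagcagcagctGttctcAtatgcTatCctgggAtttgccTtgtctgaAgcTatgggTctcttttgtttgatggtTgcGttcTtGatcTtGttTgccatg
Atp5g2: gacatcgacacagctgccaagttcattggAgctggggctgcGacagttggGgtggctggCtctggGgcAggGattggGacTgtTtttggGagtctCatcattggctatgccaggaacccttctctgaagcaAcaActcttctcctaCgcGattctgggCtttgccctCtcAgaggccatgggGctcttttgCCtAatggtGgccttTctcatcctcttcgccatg
Atp5g1: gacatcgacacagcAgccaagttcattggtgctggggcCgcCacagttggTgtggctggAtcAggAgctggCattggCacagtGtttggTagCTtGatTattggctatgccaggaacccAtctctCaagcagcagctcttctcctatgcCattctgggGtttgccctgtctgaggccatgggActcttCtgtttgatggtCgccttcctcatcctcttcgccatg
Of the 75 encoded residues 0 differ, while Atp5g3 differs from Atp5g2 at 48 bases and from Atp5g1 at 45, and Atp5g2 from Atp5g1 at 34. The longest run of bases shared by a pair was 20.

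Of the c-subunit genes, Atp5g3 was higher in each Q-KO library than in any wild-type library, without passing the test. It was at 650, 598 and 725 FPKM in Q-KO and 473, 504 and 436 FPKM in wild-type libraries, with separate ranges (log2 change 0.48, SE 0.14, limma adjusted p = 0.111). Atp5g2 was at 373, 377 and 517 FPKM in Q-KO and 474, 451 and 480 FPKM in wild-type libraries (log2 change -0.16, limma adjusted p = 0.604). Atp5g1 was at 290, 306 and 411 FPKM in Q-KO and 304, 252 and 313 FPKM in wild-type libraries (log2 change 0.20, limma adjusted p = 0.547). As a share of the 3 genes, Atp5g3 gave 49.5%, 46.7% and 43.9% in Q-KO and 37.8%, 41.8% and 35.5% in wild-type libraries. Atp5g2 gave 28.4%, 29.5% and 31.3% in Q-KO and 37.9%, 37.3% and 39.0% in wild-type libraries. The shares of both genes were separate between the groups, Q-KO replicate 3 included, and that of Atp5g1 overlapped. Shares of a total are not independent, so a rise of Atp5g3 alone would lower the other shares. Separate shares were not particular to the c subunit: those of the Cox6a, Cox7a and Cox7b pairs and of Cox8c were also separate. Those of the Cox4, Cox6b and Ndufa4 pairs and of Cox8a and Cox8b overlapped. The c-subunit shares were chosen after their values were seen and are given as a description, without a test.

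**Figure D5:**
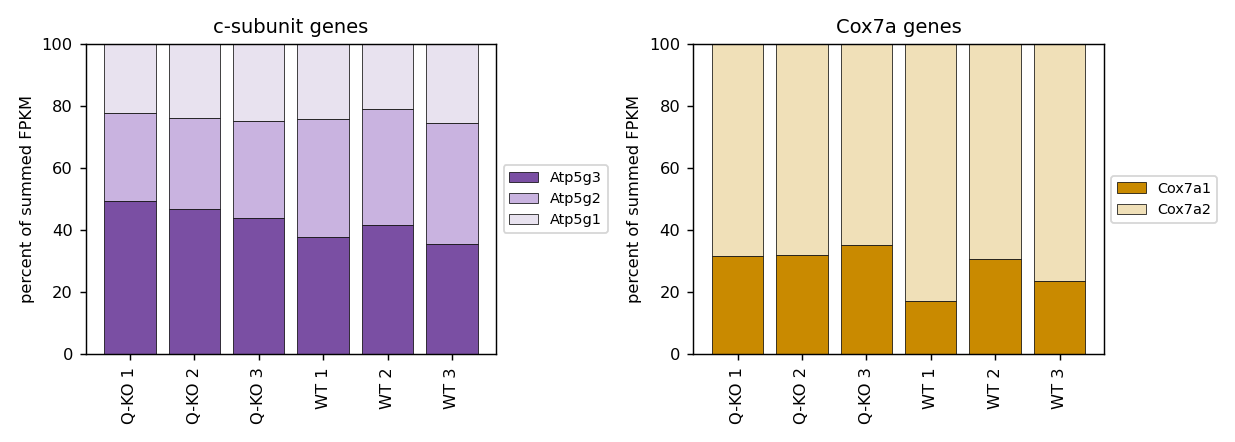
Percent of the summed FPKM of the c-subunit genes (left) and of the Cox7a genes (right) by library, with Q-KO libraries left of wild-type (WT) libraries. Atp5g3 holds 43.9% to 49.5% in Q-KO and 35.5% to 41.8% in wild-type libraries.

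Promoter windows of 300 bases, 250 before to 50 after a transcript start, were found in RefSeq (GRCm38.p6) for 78 of the 94 members, 84 windows in all. They were searched on both strands for the core motifs of 3 factors known to act on respiratory genes. The NRF1 core CGCANGCG was in 33 of 84 windows (39.3%), against 8.21% of 32851 windows of all genes. The YY1 motif AAGATGGC was in 14.3% against 2.75%, and the GABPA motif CCGGAAGT in 5.95% against 3.89%. The windows of all genes were not limited to expressed genes or matched for GC content, and repeated windows were dropped for members only. The differences are therefore not shown to be particular to respiratory genes. A match describes the letters only. The windows of the c-subunit genes are shown because the shares of Atp5g3 and Atp5g2 were separate between the groups and that of Atp5g1 was not, with NRF1 matches in capitals, 5′ to 3′ on the minus strand. They are chr2:73911277-73911576 for Atp5g3, chr15:102670998-102671297 for Atp5g2 and chr11:96075582-96075881 for Atp5g1.
Atp5g3: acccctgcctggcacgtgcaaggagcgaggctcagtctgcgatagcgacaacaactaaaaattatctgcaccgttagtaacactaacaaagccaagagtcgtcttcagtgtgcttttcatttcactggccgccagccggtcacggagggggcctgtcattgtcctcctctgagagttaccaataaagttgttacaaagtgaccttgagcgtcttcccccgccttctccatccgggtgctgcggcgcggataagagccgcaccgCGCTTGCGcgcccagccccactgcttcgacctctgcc
Atp5g2: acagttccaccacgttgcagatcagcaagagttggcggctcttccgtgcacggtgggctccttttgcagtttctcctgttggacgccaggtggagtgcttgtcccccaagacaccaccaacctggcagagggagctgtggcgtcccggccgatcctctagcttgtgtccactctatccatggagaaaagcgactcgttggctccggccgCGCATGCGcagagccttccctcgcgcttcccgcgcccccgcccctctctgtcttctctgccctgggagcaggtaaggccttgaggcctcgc
Atp5g1: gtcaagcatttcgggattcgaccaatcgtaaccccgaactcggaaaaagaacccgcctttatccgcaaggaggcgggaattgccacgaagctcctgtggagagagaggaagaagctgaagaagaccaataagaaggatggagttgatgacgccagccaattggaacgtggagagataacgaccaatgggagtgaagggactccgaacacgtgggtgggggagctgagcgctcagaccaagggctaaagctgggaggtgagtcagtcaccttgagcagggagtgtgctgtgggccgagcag
Atp5g3 and Atp5g2 have 1 match each and Atp5g1 has none in this window. The share of Atp5g3 was higher and that of Atp5g2 lower in Q-KO libraries, and these shares are not independent. Nrf1 itself was at 14.2, 14.97 and 14.6 FPKM in Q-KO and 18.3, 17.7 and 19.1 FPKM in wild-type libraries, with separate ranges (log2 change -0.31, SE 0.12, limma adjusted p = 0.190). Gabpa and Yy1 had log2 changes of 0.04 and 0.16, with overlapping ranges. The part of these factors in the levels or shares of the c-subunit genes was not tested.

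Other genes of mitochondrial energy metabolism were read against the same background, 4.06% of all genes called and 21.5% at an unadjusted p under 0.05. The list of cytochrome c and other chain genes held 10, among them Atpif1, Usmg5 and 2010107E04Rik, which are linked to the ATP synthase. Of these 10, 1 was called, a share above that background in a short list. It was Etfdh, which passes electrons from fatty acid oxidation to ubiquinone, at 17.5, 18.4 and 17.5 FPKM in Q-KO and 10.04, 12.7 and 9.09 FPKM in wild-type libraries (log2 change 0.70, SE 0.15, limma adjusted p = 0.0462). Leaving out a library ended that call in 5 of 6 fits. By limma, 0 of 24 tested assembly genes of complexes III, IV and V were called (2 at an unadjusted p under 0.05, both higher), and 0 of 13 TCA cycle genes (2, both higher). Of 15 tested biogenesis regulators 0 were called (1, lower), and of 77 mitochondrial ribosome genes 0 (13, or 16.9%, of which 11 higher). Citrate synthase, Cs, which was picked with its values in view, was at 137, 155 and 139 FPKM in Q-KO and 122, 92.4 and 97.5 FPKM in wild-type libraries (log2 change 0.47, limma adjusted p = 0.122). Of the 94 members, 34 have an exon that overlaps another gene in GENCODE M21 and 9 have pseudogenes named after them, so their levels are uncertain.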

How the data were processed

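RNA-seq of 6 libraries was analysed, 3 labelled Q-KO and 3 wild-type, grouped by title with the replicate numbers given there. The authors deposited FPKM values, 1 per gene symbol and library, made from total RNA extracted with Trizol per the labels' protocols. The tools named, per the submitters' processing notes, are Cufflinks, STAR 2.5, CASAVA and bcl2fastq 2.16, with the build mm9, and no role or order is stated. For annotation, strand setting and depth nothing is given in the sources used here, so no counting interval was computed. FPKM divides by length and library total, so abundant genes shift the rest. With 1 repeated header row left out, 24043 gene rows remained, and 0 sample columns were unmapped.

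Log2(FPKM + 1) of the 11573 genes averaging at least 1 FPKM was tested two-sided by lmFit and eBayes (intensity trend on) of limma 3.58.1, run in R 4.3.3. Benjamini-Hochberg adjustment covered all genes, and calls needed an adjusted p under 0.05. Changes are given as Q-KO minus wild-type on that scale, which understates those of low genes. A gene low in 1 group can pass the filter through the other. Count tests were not used, since FPKM are not counts. The fit was tested on simulated data. Libraries with the same number did not deviate together (Pearson's r of -0.03, 0.01 and 0.02 across genes, which are not independent replicates), and the labels name no pairing, so no block was used.

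Members and lists were chosen with earlier results of these data known. The members named are those called, the most abundant and the most changed in each direction per complex, the Sdh subunits, the tissue-restricted isoforms with their counterparts, the c-subunit genes, and, of other lists, called genes. Any other was named after its values were seen. Lengths, overlaps and coding sequences came from GENCODE M21 and promoters from RefSeq, both GRCm38, not the build of the processing notes. Alternatives were other pseudocounts, filters, scalings and fits, trends with length or GC removed, a replicate block, a term for Y-linked transcripts, and each library left out.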

Additional observations from a re-analysis of the deposited data

How the results depend on the processing

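The number of all genes called was 470, against 266 with a mean of at least 5 FPKM, 894 with a term for Y-linked transcripts and 28 to 566 with a library left out. Rises made up 352 of 470 calls, 247 of 457 with quantile normalization, 262 of 424 with median-of-ratios scaling, 275 of 446 with the GC trend removed and 324 of 544 with the length trend removed. Members called were 2 without a filter, both higher (Cox6a2, Cox8c), and 0 with a mean of at least 5 FPKM, a filter that leaves Cox6a2 out. They were 3 with the length trend removed, 2 higher (Cox6a2, Ndufaf2) and 1 lower (Ndufaf3). Leaving out a library gave 0 to 2, with 0 to 1 higher and 0 to 1 lower. Over the subunit genes only, chosen after seeing the data, it was 0. The replicate block, for numbers that do not pair the samples, gave 333 calls over all genes and 1 member, Cox6a2. Of 473 values of 28 named members under alternatives, 449 kept direction and side of the threshold and 19 changed sign, in 10 members, none of them called. Under the Y-linked term the log2 change was -0.0753 for Uqcr10, 0.215 for Cox4i2, 0.00385 for Atp5b, 0.189 for Cox7b2, -0.0181 for Cox4i1, -0.225 for Cox6b1 and -0.0142 for Cox8a. Cox6b1 was at -0.0457 with median-of-ratios scaling, -0.0820 with quantile normalization, -0.0786 with the length trend removed and -0.0609 with the GC trend removed, and Ndufa4 at -0.000639 with the length trend removed. With a library left out, values ran from -0.0149 to 0.224 for Ndufa4, from -0.0121 to 0.362 for Cox6b2, from -0.161 to 0.175 for Cox6b1, from -0.0192 to 0.284 for Cox7a2 and from -0.0543 to 0.287 for Cox8a. Of the 28 named members tested, 18 moved by over 1.5 times or changed sign when some library was left out, 14 of them without Q-KO replicate 3. The cause was not tested. That term leaves wild-type replicate 3 as the only wild-type library set against Q-KO. Depth is unknown, so the precision of low members such as Cox6a2 and Cox8c cannot be stated.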

Other observations

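Ratios of 2 members within a library were chosen after their values were seen and are given without a test. Sdhd over Sdhb was 1.73, 1.64 and 1.33 in Q-KO libraries and 0.970, 1.22 and 0.720 in wild-type libraries. Uqcrc2 over Uqcrc1 was 0.670, 0.624 and 0.743 in Q-KO libraries and 0.753, 1.08 and 1.01 in wild-type libraries. Atp5g3 over Atp5b was 0.676, 0.577 and 0.685 in Q-KO libraries and 0.383, 0.454 and 0.430 in wild-type libraries. In these 3 ratios the groups did not overlap, with Q-KO replicate 3 included. Atp5c1 over Atp5b was 0.313, 0.283 and 0.358 in Q-KO libraries and 0.312, 0.361 and 0.382 in wild-type libraries, and overlapped. Sdhb over Sdha also overlapped. Sdhc over Sdha was lower in Q-KO libraries, with its highest Q-KO value, 0.8337, just under its lowest wild-type value, 0.8338. Among single genes, the groups did not overlap for 27.7% of all genes tested. How often the ratios of other gene pairs separate was not tested, so these ratios have no background.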
